A study of Rattus norvegicus with 7 samples.

Results

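The miR-29 family is a set of small regulatory RNAs made from 4 rat genes, and it was followed here through 7 named entries on an Agilent rat miRNA array that carried 677 rat miRNAs. The members were taken by name, as every entry called rno-miR-29a, rno-miR-29b or rno-miR-29c or one of these with a star, such as rno-miR-29c*. The prefix of the rat names is left out from here on. The array name without a star stands for the guide strand, the arm of the hairpin that is usually kept, and the star for the opposite arm. The 7 entries were 3 guide strands and 4 star arms, read by 20 probes in 140 spots per array. The samples were livers of adult male Sprague-Dawley rats fed for 28 days either a diet with 50 mg of potassium perfluorooctanesulfonate (PFOS, a persistent fluorinated surfactant) per kg or the control diet. Liver total RNA was labelled with Cy3, and each array held the RNA of 1 rat, with 4 PFOS arrays and 3 control arrays. RNA came from 4 rats per group, and 1 control array was dropped by the submitters after quality control. Both groups shared strain, sex, tissue and time on diet, and the series title places the comparison in work on thyroid hormone homeostasis.

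A miRNA pairs through its seed, the bases near its 5′ end, with sites in messenger RNAs and lowers their translation or stability. Targets of miR-29 described in mammals include fibrillar collagens, elastin and the DNA methyltransferases Dnmt3a and Dnmt3b. In liver the family is best known from hepatic stellate cells, the cells that lay down scar matrix, where it is reported to fall during fibrosis. Hepatocytes express it too.

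All 7 entries had a mature sequence in RefSeq (GRCr8). The 3 guide strands are shown because they carry the same seed, bases 2 to 8 in capitals, and are nearly alike beyond it.
miR-29a: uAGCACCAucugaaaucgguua
miR-29b: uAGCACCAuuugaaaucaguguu
miR-29c: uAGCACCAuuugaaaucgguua
Of 693 rat mature names in the RefSeq table, these 3 alone held that seed. Counted from 1 at the 5′ end, miR-29a differed from miR-29c by 1 substitution, C10U (miR-29a base, position, miR-29c base), and the last 12 bases of both were identical. From miR-29b to miR-29c the substitutions were A18G, G21U and U22A, and miR-29b was 1 base longer, at 23 against 22 bases. Probes for miR-29a and miR-29c may therefore each catch some of the other strand, and that share was not tested.

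The star arms are shown because none shares a seed with another or with a guide strand.
miR-29a*: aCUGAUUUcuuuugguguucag
miR-29b-1*: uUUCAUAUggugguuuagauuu
miR-29b-2*: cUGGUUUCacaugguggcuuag
miR-29c*: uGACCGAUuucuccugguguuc
The genes lie in pairs. Mir29a and Mir29b1 are neighbours on chromosome 4, and Mir29b2 and Mir29c are neighbours on chromosome 13, with 0 annotated genes between the members of either pair. The miR-29b guide strand is identical from Mir29b1 and Mir29b2, so its signal sums over both loci. The hairpin of Mir29c is shown with both arms in capitals, the star arm first and the guide strand after the loop.
Mir29c: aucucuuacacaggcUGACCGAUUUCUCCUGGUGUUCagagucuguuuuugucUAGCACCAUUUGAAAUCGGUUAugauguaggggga

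The guide strands were well measured and the star arms were near or below background. Each guide strand was detected on all 7 arrays, meaning that 1 of its probes or more had over 50% of spots flagged as well above background by the scanner software. All 130 kept spots of miR-29a, 137 of miR-29b and 133 of miR-29c carried that flag, and 0 spots of any member were saturated. Within an array the spots of a guide-strand probe scattered with a median coefficient of variation of 7.35% for miR-29a, 6.13% for miR-29b and 6.22% for miR-29c. Of the star arms, miR-29c* was detected on 3 PFOS arrays and on 0 control arrays, and the other 3 on 0 arrays. A miRNA was tested if every control array, or 3 or more PFOS arrays, detected it, which left 175 of 677 in the table and 4 of the 7 members.

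Array brightness differed between the groups and touches every level below. The median unscaled signal over the 123 miRNAs detected on all arrays was 226 to 326 on PFOS arrays and 133 to 176 on control arrays. The labelling spike-in, a synthetic RNA added at labelling, was 2.23-fold higher on PFOS arrays, with 6571 to 10686 units there against 3431 to 3659 on control arrays. Detected miRNAs numbered 161 to 200 on PFOS arrays and 131 to 174 on control arrays. Signals were scaled between arrays and normalised by cyclic loess, so each difference is relative to the other miRNAs. The part of brightness in these differences was not tested. The precision is limited by the 7 arrays, and because each array is whole liver, fewer cells of a type and less RNA per cell cannot be told apart.

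miR-29c was the member with the widest gap between diets. Its normalised signal was 1613, 1490, 1499 and 1371 in the livers of PFOS replicates 1 to 4, against 1155, 1164 and 1199 in those of control replicates 1 to 3. All 4 PFOS livers lay above all 3 control livers, and the gap between the groups was wider than the whole range of the control values. The geometric means were 1491 and 1173, a log2 difference of 0.35 (SE 0.08, 95% interval 0.16 to 0.53, n = 4 and 3). Over all tested miRNAs this did not pass the threshold of 0.05 (limma adjusted p = 0.131, unadjusted p = 0.00334), and miR-29c stood 4th of 175 by p and 11th by difference. As background, 0 of the 175 passed in either direction (0% higher and 0% lower), while 15 (8.57%) were higher and 19 (10.9%) lower at an unadjusted p under 0.05.

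miR-29b, the guide strand made at both loci, lay closer between diets. It had 1276, 1262, 1267 and 1177 units in PFOS livers, against 1173, 1044 and 1114 in control livers. The groups did not overlap, but PFOS replicate 4 and control replicate 1 nearly met. The log2 difference was 0.17 (SE 0.07, 95% interval -0.01 to 0.34, limma adjusted p = 0.276). miR-29a had 2895, 2679, 2729 and 2266 units in PFOS livers, against 2521, 2211 and 2565 in control livers. Its groups overlapped, with PFOS replicate 4 below 2 of the 3 control livers. The log2 difference was 0.12 (SE 0.11, 95% interval -0.15 to 0.38, limma adjusted p = 0.629).

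**Figure D1:**
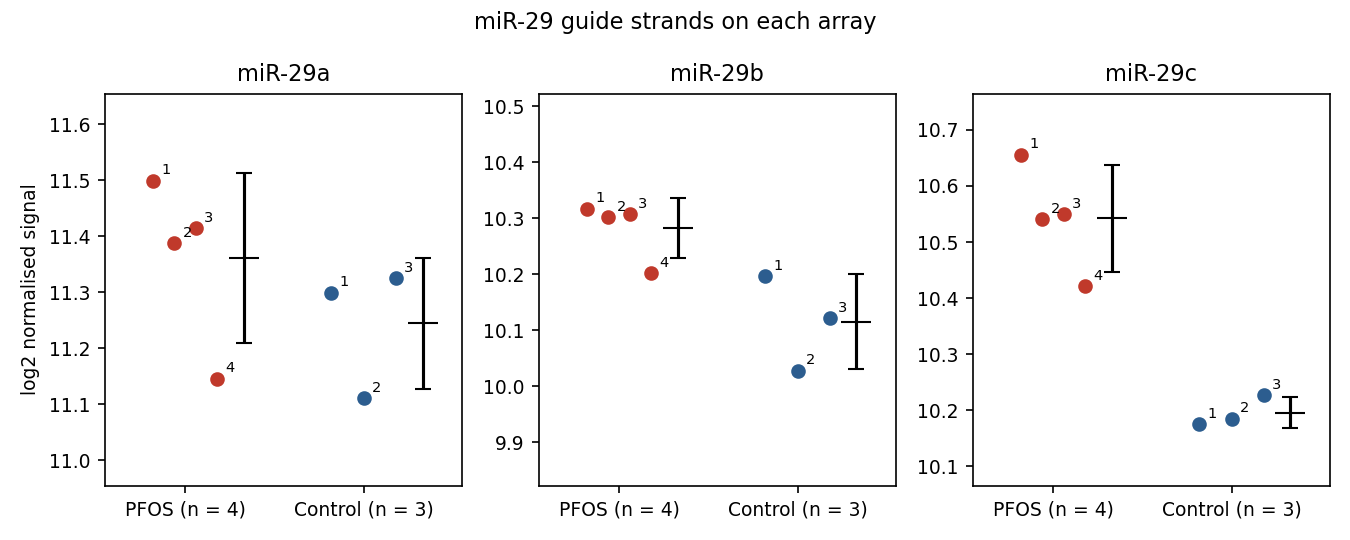
The log2 normalised signal of each guide strand is plotted for each array, with PFOS in red on the left, control in blue on the right, replicate numbers beside the points, and the mean ± SD in black (n = 4 and 3). Each panel spans the same log2 range around its own middle. The 4 PFOS points lie above the 3 control points for miR-29b and miR-29c, and the groups overlap for miR-29a.

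Read together, all 3 guide strands had a positive difference, where 45.7% of all tested miRNAs did. The median difference was -0.02 over all tested miRNAs and 0.0007 over the 123 detected on all arrays, as the guide strands were. The groups did not overlap, with PFOS above, for 2 of the 3, against a background of 9.71% of tested miRNAs. The strands are nearly alike in sequence and varied together across livers, so they are not 3 independent results. Before any scaling, the log2 differences were 1.12 for miR-29c, 0.94 for miR-29b and 0.88 for miR-29a, and the median of the 123 miRNAs detected on all arrays was 0.71. By that unscaled difference miR-29c stood 5th, miR-29b 13th and miR-29a 21st of the 123.

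**Figure D2:**
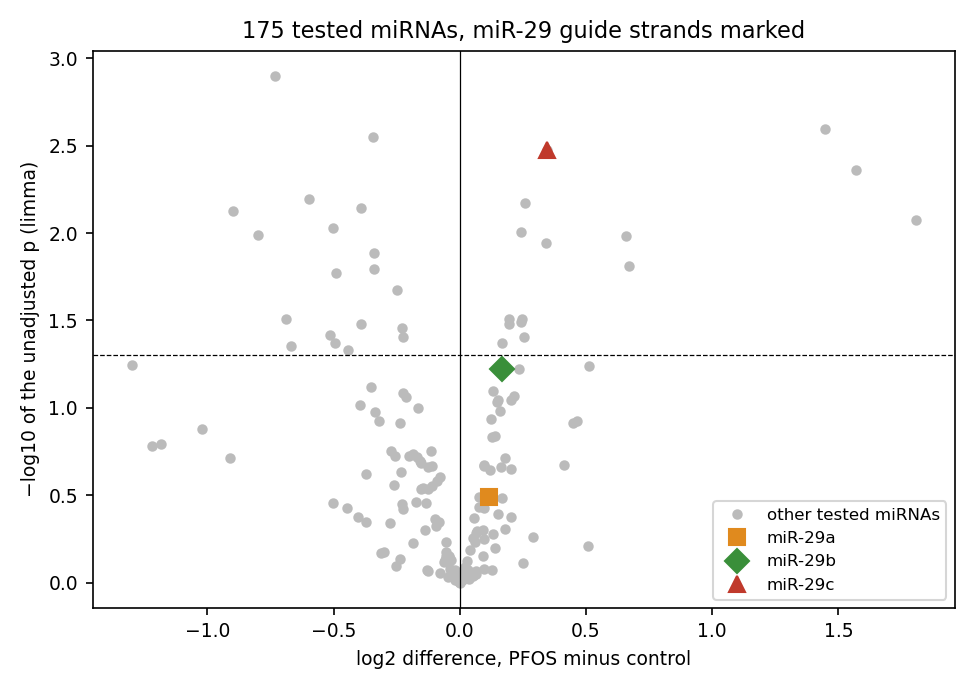
Each point is 1 of the 175 tested miRNAs, with its log2 difference of PFOS minus control on the x axis and −log10 of its unadjusted limma p on the y axis. The dashed line marks an unadjusted p of 0.05, and coloured symbols mark the guide strands. miR-29c lies above the line, miR-29b just below it and miR-29a well below it.

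The arrays stood in 2 rows of 1 slide, and both rows held both groups. For miR-29c the log2 difference was 0.42 in the first row (2 PFOS arrays and 1 control array) and 0.28 in the second (2 and 2). For miR-29b it was 0.11 and 0.18 in those rows, and for miR-29a 0.14 and 0.06. All 6 within-row values were positive. For miR-29b and miR-29c that sign was fixed beforehand, because every PFOS array lay above every control array.

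The size of the guide-strand differences, and in some settings their sign, depended on how arrays were brought to a common scale. With only the 75th percentile of the 123 miRNAs seen on every array made equal, without loess, the differences were 0.46 for miR-29c, 0.28 for miR-29b and 0.22 for miR-29a, and none passed (smallest limma adjusted p = 0.102, for miR-29c). With that percentile taken over all miRNAs on the array they were 0.67, 0.50 and 0.43, where the tested miRNAs as a whole had a median of 0.25, and again none passed (smallest limma adjusted p = 0.452, for miR-29c). With normexp background correction the miR-29c difference was 0.30 and passed (limma adjusted p = 0.0265), and with the median signal and no background subtracted it was 0.31 and passed (limma adjusted p = 0.0338). In the log2 values of the authors' deposited table it was 0.10 (limma adjusted p = 0.678). Scaled to the labelling spike-in instead, it was -0.010, and the tested miRNAs as a whole had a median of -0.43. Under the same spike-in scaling miR-29b was -0.19 and miR-29a -0.25, and in the deposited table they were -0.066 and -0.18. Quantile normalization gave -0.037 for miR-29a. In each of 23 alternative settings, which share the same 7 arrays, miR-29c had the highest of the 3 differences, then miR-29b, then miR-29a. Settings that changed only the filter or the moderation left the differences at their reported values, and the higher floor nearly so. The percentile scalings without loess and the spike-in scaling multiply each array by a factor, so they share the same gaps between strands. The settings are therefore not separate tests of the order.

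**Figure D3:**
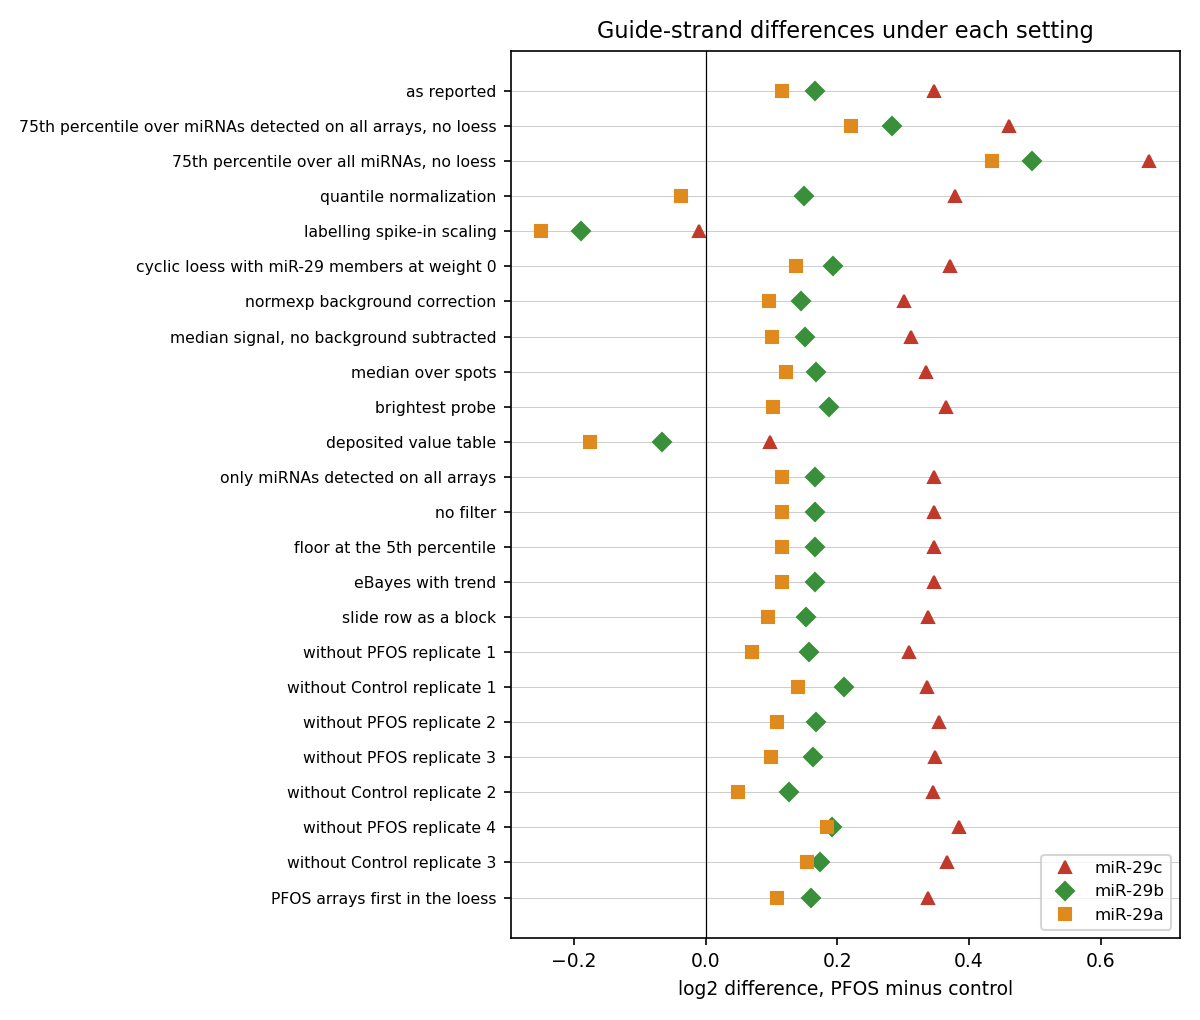
Rows are the reported setting and 23 alternatives, and the x axis is the log2 difference of PFOS minus control for each guide strand. The red triangle of miR-29c lies to the right of the green diamond and the orange square in every row. All 3 symbols lie left of 0 with labelling spike-in scaling.

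Each guide strand was read by a pair of probes, and the probes of a pair gave similar differences. The probes of miR-29c both had a log2 difference of 0.35, with an SE of 0.07 for the first and 0.09 for the second. The first read 753, 691, 671 and 665 units in PFOS livers and 545, 552 and 539 in control livers. The second read 853, 801, 830 and 709 units in PFOS livers and 606, 615 and 660 in control livers. The groups were apart for each of them, yet neither passed over the 320 probes tested (limma adjusted p = 0.0963 and 0.123), of which 2 (0.625%) did.

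The miR-29b probes had differences of 0.19 (SE 0.07) and 0.17 (SE 0.07), and the miR-29a probes 0.14 (SE 0.10) and 0.10 (SE 0.11). Groups were apart, with PFOS above, for the 4 probes of miR-29b and miR-29c and overlapped for the pair of miR-29a. The background was 12.5% of probes. The probes of a pair read the same strand in the same livers and make up its sum. Their counts therefore add no result separate from that of the strands. The log2 ratio of the brighter to the dimmer probe of a pair was much the same on both diets. For miR-29c it averaged 0.20 on PFOS arrays and 0.20 on control arrays. For miR-29b it averaged 0.71 on PFOS arrays and 0.69 on control arrays, and for miR-29a 1.28 on PFOS arrays and 1.33 on control arrays. The ranges overlapped each time.

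**Figure D4:**
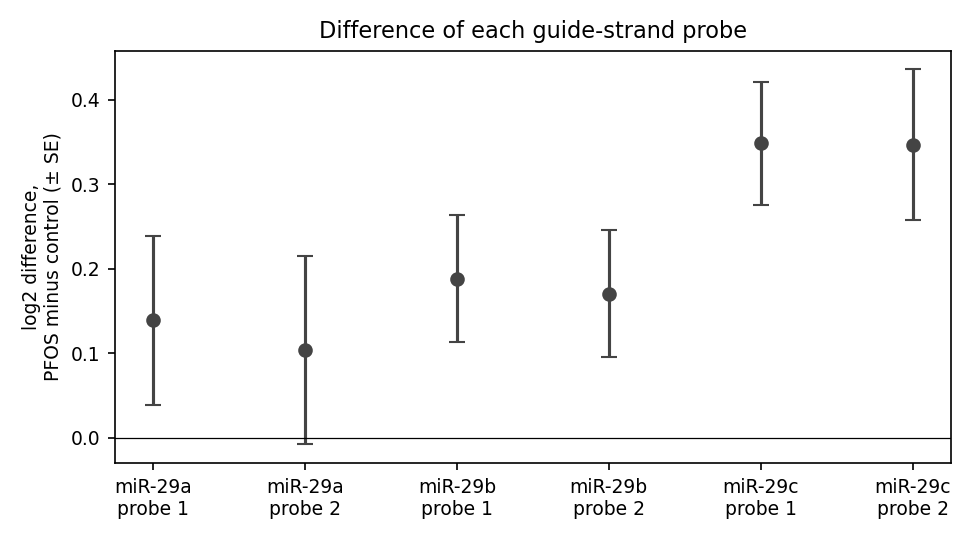
The y axis gives the log2 difference of PFOS minus control for each of the 6 guide-strand probes, with bars of ± SE from the limma fit over 320 probes. Both miR-29c probes stand at 0.35, above the miR-29b probes at 0.19 and 0.17 and the miR-29a probes at 0.14 and 0.10.

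Ratios between guide strands on the same array cancel any factor that the strands share there, and they tested whether the members differed from each other in their change. The linear ratio of miR-29c to miR-29a was 0.557, 0.556, 0.549 and 0.605 in PFOS livers, against 0.458, 0.526 and 0.467 in control livers. Every PFOS value was above every control value, and the highest control value, that of replicate 2, came close to them. The mean log2 ratio was -0.82 ± 0.06 on PFOS arrays and -1.05 ± 0.11 on control arrays (SD, n = 4 and 3), a difference of 0.23 (SE 0.06). An exact two-sided permutation test over the 35 splits of the arrays gave p = 0.0286, the smallest these splits allow, and 0.0429 after Benjamini-Hochberg adjustment over 3 ratios. With the brightest probe of each strand in place of the sum the difference was 0.26, and it was 0.27 in the deposited table. The groups stayed apart in both settings, with an exact permutation p of 0.0286 in each, but neither passed after adjustment (adjusted exact permutation p = 0.0857 in each). With 35 splits and 3 ratios, a ratio at the smallest p passes only if another ratio reaches it too. The adjusted outcome here was therefore set by the other ratios.

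The ratio of miR-29c to miR-29b was 1.26, 1.18, 1.18 and 1.16 in PFOS livers, against 0.985, 1.11 and 1.08 in control livers. The groups were again apart, with control replicate 1 the lowest. The mean log2 ratio was 0.26 ± 0.05 on PFOS arrays and 0.08 ± 0.09 on control arrays, a difference of 0.18 (SE 0.05, exact permutation p = 0.0286, adjusted p = 0.0429). With the brightest probes the difference was 0.18 but did not pass (adjusted exact permutation p = 0.0857), and in the deposited table it was 0.16 (adjusted exact permutation p = 0.214).

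The ratio of miR-29b to miR-29a did not separate the diets. It was 0.441, 0.471, 0.464 and 0.520 in PFOS livers, against 0.466, 0.472 and 0.434 in control livers. The groups overlapped, and the log2 difference was 0.05 (SE 0.07, exact permutation p = 0.514). Under quantile normalization it was 0.19 and the groups did not overlap (exact permutation p = 0.0286, adjusted p = 0.0286).

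As background, the groups did not overlap, in either direction, for 16.2% of the 7503 ratios between miRNAs detected on all arrays. Within the family this held for 2 of the 3 ratios. Both of these carry miR-29c, and any 2 of the 3 ratios set the third, so they are not separate results. The ratio of miR-29c to each of 120 other such miRNAs was higher in every PFOS liver than in any control liver for 62 of them and lower for 2. For miR-29b these counts were 25 and 2, and for miR-29a 10 and 2. The groups overlapped for 56 of the 120 ratios with miR-29c, 93 with miR-29b and 108 with miR-29a. The share apart was thus below the 16.2% background for miR-29a and above it for the other strands. These ratios share their numerator and are not independent. Within the first slide row the difference was 0.28 for miR-29c over miR-29a, 0.31 for miR-29c over miR-29b and -0.03 for miR-29b over miR-29a. Within the second row the values were 0.22, 0.10 and 0.12. With miR-29c on top the sign within a row was fixed beforehand, because the groups were apart over all arrays. Among the control arrays the brightest, replicate 1, had the lowest ratio of miR-29c to both other strands. Among the PFOS arrays the brightest, replicate 3, had the lowest ratio to miR-29a but the second highest ratio to miR-29b.

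**Figure D5:**
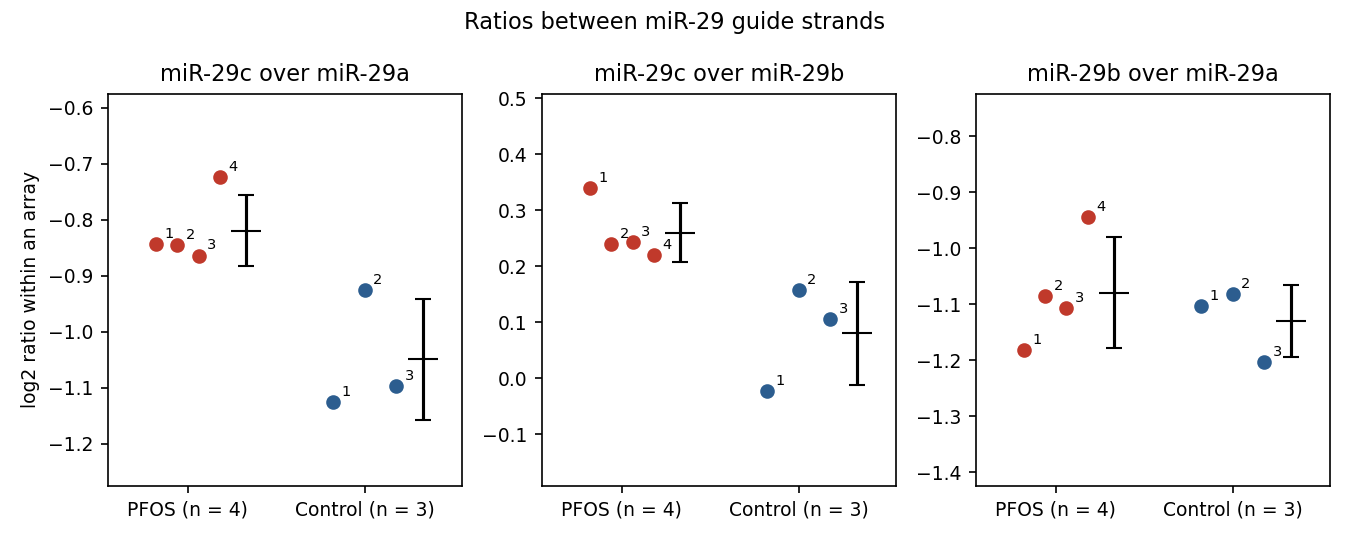
The log2 ratio of 2 guide strands on the same array is plotted for each array, PFOS in red on the left and control in blue on the right, with replicate numbers and the mean ± SD in black (n = 4 and 3). Each panel spans the same log2 range. PFOS points lie above control points for both ratios with miR-29c on top and overlap with them for miR-29b over miR-29a.

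Of the star arms, miR-29c*, the opposite arm of the Mir29c hairpin shown above, was the one with any detection. Its unscaled processed signal was 21.5, 29.4, 31.4 and 28.1 units on PFOS arrays, against 17.1, 15.4 and 21.9 on control arrays. Well above background were 44 of 80 kept spots on PFOS arrays and 5 of 57 on control arrays. PFOS replicate 1, the array without detection, was also the dimmest PFOS array, and the part of array brightness in these counts was not tested. After normalisation the PFOS mean was below the bound that detection set on the control arrays, so no fold is given, nor a difference for its ratio to the guide strand. The star arms miR-29a*, miR-29b-1* and miR-29b-2* had 1 of 140, 0 of 139 and 0 of 139 kept spots well above background, with unscaled signals of 3.28 to 23.1, -1.82 to 11.8 and -18.1 to -3.41 units, and their levels are not compared.

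The guide strands varied together across livers. Over the 7 arrays Pearson's r of the log2 signals was 0.87 between miR-29c and miR-29b, 0.81 between miR-29b and miR-29a and 0.68 between miR-29c and miR-29a. With the group means taken off, r was 0.51, 0.86 and 0.85 for the same pairs. Control replicate 2 was lowest of the controls in miR-29a and miR-29b, and PFOS replicate 4 lowest of the PFOS livers in all 3. Outside the family, the tested miRNAs most like miR-29c were let-7i (r = 0.94), miR-362* (0.92) and miR-30e (0.89). Of these, miR-362* was detected on 4 PFOS arrays but on only 1 control array, so its r rests partly on values without detection. Those most like miR-29b were miR-107 (0.92), let-7i (0.84) and let-7d (0.82), and those most like miR-29a were miR-146a (0.82), let-7i (0.80) and miR-103 (0.79). With group means taken off, the r with miR-29c was 0.88 for let-7i, 0.78 for miR-362* and 0.35 for miR-30e. The r with miR-29b was then 0.72 for miR-107, 0.52 for let-7i and 0.63 for let-7d. For miR-29a it was 0.96 with miR-146a, 0.82 with let-7i and 0.73 with miR-103. The arrays share their slide and their normalisation, and these correlations are descriptions over 7 points.

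Because miR-29 is best known from liver fibrosis, other miRNAs reported to change there are given beside it. Of 9 reported to fall in fibrotic liver or activated stellate cells, 8 were tested, 5 with a positive and 3 with a negative difference, and 0 passed. Their median was 0.00, beside -0.02 over all tested miRNAs. The smallest p among them belonged to miR-101a, a hepatocyte miRNA, with a log2 difference of 0.20 (SE 0.07, limma adjusted p = 0.224), and to miR-30a, at 0.17 (SE 0.07, limma adjusted p = 0.233). Of 9 reported to rise, 7 were tested, 2 positive and 5 negative, with a median of -0.04, and 0 passed. miR-34a, a miRNA induced by p53, had a log2 difference of -0.69 (SE 0.25, limma adjusted p = 0.224), and miR-221, linked to stellate cell activation and cell growth, 0.67 (SE 0.21, limma adjusted p = 0.155). The groups overlapped for miR-221, which was detected on 4 PFOS arrays and 2 control arrays. It entered the test only through the PFOS arrays, where it was higher, so its difference is no support for a rise. Among the 5 negative ones, miR-214 also entered only through the PFOS arrays, with detection on 1 control array.

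Cell type markers were looked at because the family is expressed in several liver cells. Hepatocyte miRNAs (miR-122, miR-192, miR-194 and miR-101a) were all detected on every array and summed to 63530 to 66330 units in PFOS livers and 64606 to 65678 in control livers. Of these 4, 2 had a positive and 2 a negative difference, with a median of -0.04. All 5 stellate and fibroblast markers were tested, 1 positive and 4 negative, with a median of -0.04 and a summed signal of 746 to 1047 in PFOS livers and 819 to 1023 in control livers. Leukocyte markers summed to 758 to 1002 units in PFOS livers and 901 to 953 in control livers, with 2 of the 4 tested positive and 2 negative. miR-155 was not analysed here. Endothelial miR-126 and miR-126* summed to 1714 to 1854 units in PFOS livers and 1571 to 1936 in control livers, and erythroid miR-144 and miR-451 to 438 to 1079 in PFOS livers and 518 to 930 in control livers. The groups overlapped in each of these sums, which a bright member can dominate, as miR-122 did among the hepatocyte markers. Single markers, picked after their values were seen, stood further apart. The leukocyte marker miR-223 had a log2 difference of -0.23 (SE 0.09, limma adjusted p = 0.230), with overlapping groups. The other tested leukocyte markers also had overlapping groups, at 0.15 for miR-142-5p, 0.09 for miR-150 and -0.02 for miR-142-3p. For the hepatocyte marker miR-101a given above the groups did not overlap. The background of groups apart with PFOS above was 9.71% of tested miRNAs. The other hepatocyte markers had overlapping groups, at -0.12 for miR-194, -0.09 for miR-192 and 0.004 for miR-122. The stellate marker miR-145 was detected on 3 PFOS arrays and 0 control arrays, so its level is not compared, although its fitted value is 1 of the 4 negative ones. Another of the 4, miR-214, was detected on 3 PFOS arrays and 1 control array and was tested only through the PFOS arrays. The part of these markers in the miR-29 differences was not tested.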

How the data were processed

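Liver total RNA of 7 rats was measured on 1-colour Agilent miRNA arrays, 4 from the PFOS diet and 3 from the control diet, on 1 slide with 1 scan time. Spot intensity and its flags were made with Feature Extraction 10.7.3.1, per the file headers. Values started from its processed intensity, from which background is already subtracted, per the file headers, with no scaling across arrays. The deposited table of log2 values, normalized with cyclic lowess by the authors per the labels, served as an alternative.

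Spots of a probe were averaged without outlier flags, probes were summed per miRNA, and arrays were scaled to the 75th percentile over miRNAs detected on all arrays. Values were floored at the 1st percentile of detected values (12.1 units), taken to log2 and normalised by cyclic loess (span 0.7 and 3 iterations), whose curves were fitted to the 123 miRNAs that every array detected. Groups were compared with limma 3.58.1 in R 4.3.3 (lmFit and eBayes), adjusted by Benjamini-Hochberg over all 175 tested miRNAs or 320 tested probes, at a threshold of 0.05. Ratios were compared by exact two-sided permutation. Each array is a separate rat, so p-values measure the spread between rats and arrays. Plots were drawn with matplotlib 3.10.9.

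The scripts were tested on simulated data. The members and lists were chosen with earlier results of these data known. Named were all members, the 3 miRNAs outside the family most correlated with each guide strand, and the 2 tested members of smallest p in each fibrosis list. Alternatives changed the normalization, background, summary, filter, floor, moderation and arrays used. Another 3 were added after seeing the data, namely the array order in the loess and the ratios in the deposited table and after quantile normalization. Sequences are RefSeq's, and the array's header names another assembly, so no coordinates are given.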

Additional observations from a re-analysis of the deposited data

Results flagged for a closer look

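In 18 measures of the tested members, their probes, the ratios between guide strands and array brightness, a PFOS liver stood far from the other 3 of its group in 2 cases, both in replicate 4. Chance flags about 1 in 20 such groups. For miR-29b its log2 normalised signal was 10.20, with the other PFOS livers between 10.30 and 10.32. For miR-29c over miR-29a its log2 ratio was -0.72, with the others between -0.86 and -0.84. It lay towards the control livers in miR-29b and away from them in the ratio. Without it the miR-29c over miR-29a difference was 0.20.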

How the results depend on the processing

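Among 23 alternatives the direction was kept in 22 for miR-29c, 21 for miR-29b and 20 for miR-29a. These counts include changes of filter or moderation alone, which cannot alter a difference, and the higher floor, which hardly altered it. They also include leaving out each array in turn. That could hardly reverse miR-29b or miR-29c, whose groups were apart. With labelling spike-in scaling the log2 differences were -0.010 for miR-29c, -0.19 for miR-29b and -0.25 for miR-29a, beside a median of -0.43 over the tested miRNAs. In the deposited table miR-29b was -0.066 and miR-29a -0.18, and after quantile normalization miR-29a was -0.037. The cause was not tested. miR-29c passed after normexp (0.30) and without background subtraction (0.31). Counts passing over all tested miRNAs, 0 higher and 0 lower as reported, were 3 and 0 with the 75th percentile over all miRNAs, 0 and 8 with the spike-in, 6 and 16 with normexp, 5 and 15 unsubtracted, 0 and 9 in the deposited table, 0 and 1 with no filter and 3 and 1 with slide row as a block. The median of all tested miRNAs was 0.25 with the 75th percentile over all miRNAs and -0.15 with no filter. After adjustment over the 3 ratios, the ratio differences with miR-29c on top did not pass with the brightest probe (0.26 over miR-29a and 0.18 over miR-29b) or in the deposited table (0.27 and 0.16). The exact permutation p of miR-29c over miR-29a stayed at 0.0286 in both. Both passed after quantile normalization (0.42 and 0.23), as did miR-29b over miR-29a (0.19).

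Leaving out each array in turn gave 0.31 to 0.39 for miR-29c (limma adjusted p 0.0958 to 0.304), 0.13 to 0.21 for miR-29b and 0.05 to 0.18 for miR-29a. The value of miR-29a was lowest without control replicate 2 and highest without PFOS replicate 4. The ratio differences were 0.20 to 0.30 for miR-29c over miR-29a, 0.13 to 0.22 for miR-29c over miR-29b and 0.01 to 0.09 for miR-29b over miR-29a, the last lowest without PFOS replicate 4, and they are given by value alone. The arm ratio before normalization was not run, because no difference is given for it. No paired analysis was possible because the labels give no replicate numbers shared between groups. Signal over background limited the star arms.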
